A study of Mus musculus with 6 samples.

Results

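The genes described here were 80 protein-coding genes that were nearly silent in activated wild-type (WT) CD4+ T cells and were detected in every library of the same cells without the histone deacetylase HDAC1. They were chosen from the deposited count table by 4 criteria on CPM, which is a gene's count times 1000000 over the library's total count: a WT mean below 1, an HDAC1-cKO mean of at least 1, an HDAC1-cKO mean of at least 4 times the WT mean, and every HDAC1-cKO library above every WT library. The table held 55536 genes, of which 22028 were protein-coding. Because the measured difference itself chose the genes, their higher level in HDAC1-cKO is a description and carries no test.

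The study compared 2 genotypes on the C57BL/6 background. HDAC1-cKO cells were 2D2-Hdac1fl/fl-Cd4-Cre+, and WT cells were 2D2-Hdac1fl/fl-Cd4-Cre-, so that both carried the floxed Hdac1 alleles and the transgenic 2D2 T cell receptor, which recognises a peptide of myelin oligodendrocyte glycoprotein (MOG). Cre under the Cd4 promoter deletes floxed alleles during T cell development in the thymus. Naive CD45.2+ donor cells were injected into CD45.1+ recipients, which were immunised 18 hours later in the footpad with MOG35-55 and complete Freund's adjuvant. After another 4 days, 500 donor 2D2+ CD4+ cells were sorted from the popliteal lymph nodes for each library. Each of the 3 libraries per genotype came from a pool of 2 mice, and the RNA was amplified by Smart-seq2, a full-length cDNA method for few cells.

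HDAC1 is a class I enzyme that removes acetyl groups from histone tails. It has no DNA-binding domain of its own, and works inside corepressor complexes such as Sin3, NuRD and CoREST that sequence-specific factors bring to promoters. In the CoREST complex, the factor REST recruits HDAC1 and its paralogue HDAC2 to RE1 elements and keeps neuronal genes silent in other tissues. Loss of such enzymes is known from other systems to raise histone acetylation, and T cells are known to retain HDAC2 when HDAC1 is deleted.

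The promoters of 5 genes are printed so that the kinds of start region in the set can be seen: the pair formed by a peptide hormone and its receptor (Gcg and Glp1r), a meiotic gene (Dmc1), a synaptic vesicle gene (Syngr1), and the only gene with no read in any WT library (Gpat2). The sequences are from RefSeq on GRCm38.p6, run 5' to 3' on the gene's strand, and end at the last base before the transcription start. Capitals mark exact matches, on either strand, to the GC box letters GGGCGG, the TATA box letters TATAAA, the pentamer CCAAT, the RUNX site letters TGTGGT, or the letters CAGCACC that form the left part of an RE1 element. The Gcg sequence is chr2:62483654-62483903 on the minus strand, that of Glp1r is chr17:30901617-30901816 on the plus strand, that of Dmc1 is chr15:79605110-79605359 on the minus strand, that of Syngr1 is chr15:80091084-80091333 on the plus strand, and that of Gpat2 is chr2:127424949-127425198 on the plus strand. All 5 stretches lie upstream of the first exon of their gene.
Gcg: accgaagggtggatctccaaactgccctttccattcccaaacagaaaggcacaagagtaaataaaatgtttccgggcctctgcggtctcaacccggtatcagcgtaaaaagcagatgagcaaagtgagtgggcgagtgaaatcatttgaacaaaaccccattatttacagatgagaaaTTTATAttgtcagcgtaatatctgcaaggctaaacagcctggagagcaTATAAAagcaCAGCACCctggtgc
Glp1r: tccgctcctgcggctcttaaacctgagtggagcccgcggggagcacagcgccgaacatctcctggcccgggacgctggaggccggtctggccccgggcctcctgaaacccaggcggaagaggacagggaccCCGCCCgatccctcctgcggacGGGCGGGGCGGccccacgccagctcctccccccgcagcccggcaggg
Dmc1: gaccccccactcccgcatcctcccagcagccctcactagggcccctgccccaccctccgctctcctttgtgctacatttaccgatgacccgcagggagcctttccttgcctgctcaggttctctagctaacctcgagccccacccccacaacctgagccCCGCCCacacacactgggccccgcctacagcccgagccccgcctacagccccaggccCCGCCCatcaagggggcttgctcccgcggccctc
Syngr1: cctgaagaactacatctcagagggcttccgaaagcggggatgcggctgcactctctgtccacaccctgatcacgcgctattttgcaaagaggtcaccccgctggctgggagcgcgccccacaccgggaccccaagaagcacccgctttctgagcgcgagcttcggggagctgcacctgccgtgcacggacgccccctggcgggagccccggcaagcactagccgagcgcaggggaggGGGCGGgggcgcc
Gpat2: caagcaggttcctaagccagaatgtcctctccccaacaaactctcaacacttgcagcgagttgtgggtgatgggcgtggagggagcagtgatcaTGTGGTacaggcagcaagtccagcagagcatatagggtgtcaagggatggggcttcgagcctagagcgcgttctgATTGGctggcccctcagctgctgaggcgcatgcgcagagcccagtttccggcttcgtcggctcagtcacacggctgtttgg
The Gcg stretch held 7 CpG dinucleotides and 44.8% G and C, with 2 TATA matches and 1 match to the left RE1 part. The other four had 11 to 22 CpG each. Glp1r had 20 CpG in 200 bases, 75.0% G and C, and 3 GC boxes, of which 2 overlapped, and no TATA match. Dmc1 held 2 GC boxes and Syngr1 held 1, both without a TATA match. Gpat2 held no GC box, but 1 RUNX and 1 CCAAT match. A match of letters is a description of the window and not a bound site.

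Hdac1, the deleted gene, stood at 17.3, 15.1 and 15.8 CPM in the HDAC1-cKO libraries and at 231, 232 and 237 CPM in the WT libraries, a log2 fold change of -3.91 ± 0.12 (SE; edgeR quasi-likelihood test, adjusted p = 9.59e-06), as the genotype labels state. Total counts ran from 19956153 to 36307610 in HDAC1-cKO and from 39036751 to 55900237 in WT, so 1 CPM stood for fewer reads in HDAC1-cKO than in WT. Without molecular identifiers, reads may be copies of 1 molecule, and intervals cover counting error only. HDAC1-cKO replicate 2 stood apart: in it, the deviation of a gene from its mean level rose with GC content (r = 0.621 across 6550 genes), while r was between -0.316 and -0.061 in the other five.

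Most of the genes went from a few reads to a low level, and few went further. Of the 22028 protein-coding genes, 11882 had a WT mean below 1 CPM, 319 of these had an HDAC1-cKO mean of at least 1 CPM, 103 of these passed the ratio of 4, and 80 were left once the groups had to be apart. Groups of 3 libraries were apart in this direction in 15.4% of the 15519 genes that edgeR tested and in 47% of the 319. The rule required the groups to be apart, so nothing is read from it. Together the 80 genes took 198.8, 245.0 and 206.7 CPM in HDAC1-cKO replicates 1, 2 and 3, and 29.8, 28.7 and 25.0 CPM in the WT libraries. In bulk RNA, few cells with much of a transcript and many cells with little cannot be told apart.

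The median HDAC1-cKO mean of the 80 genes was 2.06 CPM and the median WT mean was 0.303 CPM. For comparison, the median over the 10279 protein-coding genes with an HDAC1-cKO mean of at least 1 CPM was 25.7 CPM, and 0 of the 80 exceeded it. An HDAC1-cKO mean of at least 2 CPM was found in 43 of the genes, of at least 5 CPM in 10, and of at least 10 CPM in 1, Urah. In the HDAC1-cKO libraries none of the genes had 0 reads, and 51 of the 80 reached 1 CPM in every one of them. In the WT libraries 11, 17 and 16 of the genes had 0 reads. The word silent holds for the mean and not for each library, since 19 genes reached 1 CPM in at least 1 WT library, while 31 had 0 reads in at least 1. Replicates were uneven: in 22 genes the highest HDAC1-cKO library was over 3 times the lowest.

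**Figure D1:**
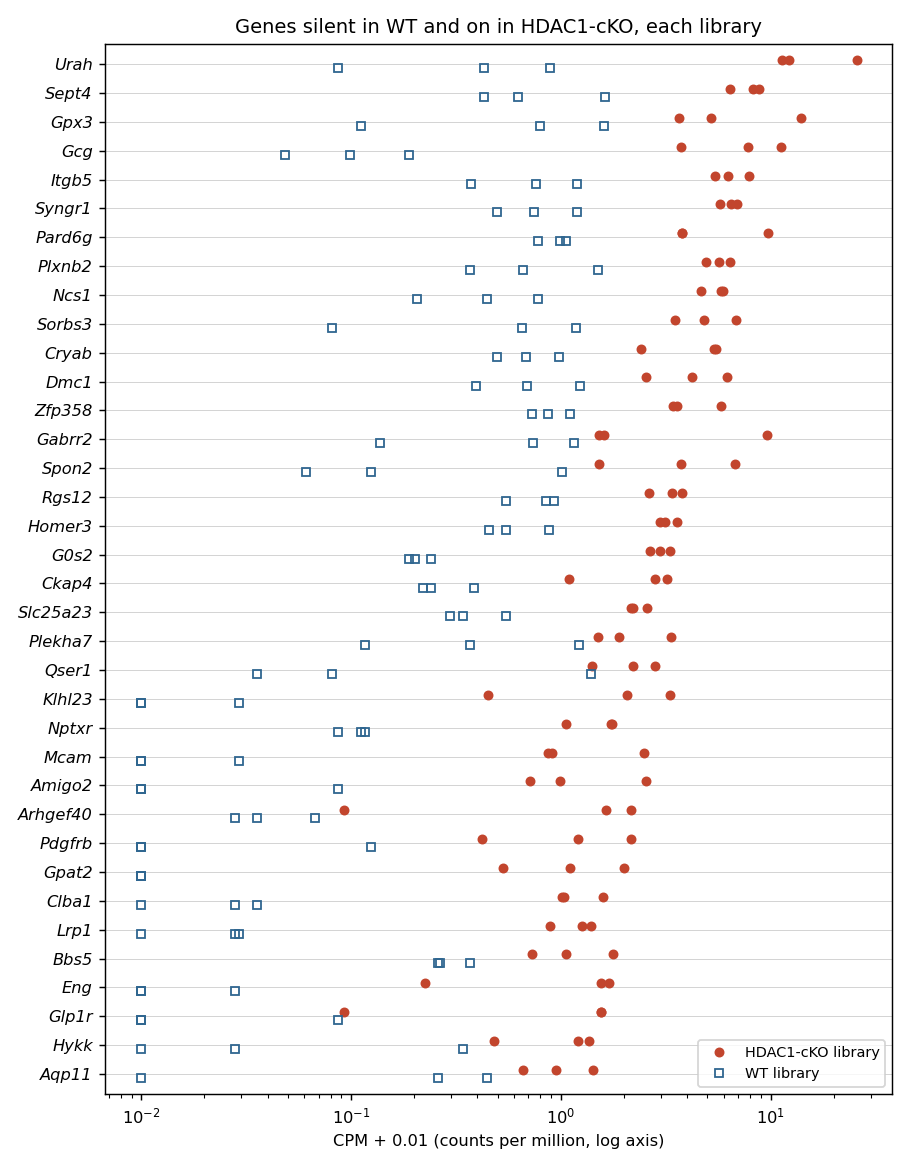
Level of the 36 genes named by a set rule in each of the 6 libraries, as CPM + 0.01 on a log axis. Filled circles are the 3 HDAC1-cKO libraries and open squares the 3 WT libraries, each point 1 library, so that a square at 0.01 is a library with no read. The circles lie right of the squares in every row because the rule required it, and the gap is narrowest in Glp1r and Qser1.

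Across all 15519 genes tested, edgeR's quasi-likelihood test (adjusted p under 0.05) called 152 genes, or 0.979%, higher in HDAC1-cKO. It could test 76 of the 80 genes, and called 22 of these higher. Arhgef40, Eng, Apbb2 and Glp1r did not pass edgeR's filter, since each had an HDAC1-cKO library with too few reads. Eng had 7 reads in replicate 1, and Arhgef40, Apbb2 and Glp1r had 3, 6 and 3 in replicate 2. Since this is the contrast that chose the genes, nothing is read from that count. Of 1150 tested coding genes with a WT mean below 1 CPM, 27 were called higher, or 2.35%, and the 22 are among these 27. Of all genes tested, 0.992% were called lower. DESeq2 called 57 of the 80 and 4.88% of all genes it tested, and limma-voom 55 and 4.81%. The 22 called genes were Gcg, Rgs12, Plxnb2, Lrp1 and Mcam among signalling genes, Syngr1, Ncs1, Homer3 and Nptxr among neural genes, Gpat2 among germ cell genes, Sept4, Itgb5 and Pard6g among cytoskeleton and adhesion genes, Urah, Cryab, G0s2, Slc25a23 and Adssl1 among metabolic genes, and Zfp358, Klhl23, Ckap4 and Clba1 in the other groups. These calls rest on 3 libraries per group: without HDAC1-cKO replicate 1, 2 of the 80 genes were called (0.0925% of all genes tested), without replicate 2, 22 were (1.6%), and without replicate 3, 2 were (0.0926%). Without WT replicate 1, 2 or 3 the counts were 5 (0.161%), 6 (0.112%) and 3 (0.0992%).

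Genes just inside and just outside each threshold differed little. Pard6g and Zfp358, at WT means of 0.934 and 0.89 CPM, were inside, and Zfp667 and Vdr, at 1.04 and 1.23 CPM, were outside. Aqp11 and Hykk, at HDAC1-cKO means of 1 and 1.01 CPM, were inside, and Fabp12 and Zc2hc1a, at 0.974 and 0.965 CPM, were outside. Plekha7 and Bbs5 passed the ratio at 4.01 and 4.08, and Gls2 and Spag4 missed it at 3.98 and 3.95. The lowest HDAC1-cKO library lay 0.00581 CPM above the highest WT library in Glp1r and 0.022 CPM above it in Qser1, and the same gap was -0.00902 CPM in Bend4 and -0.0124 CPM in Arvcf.

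By known function, the 80 genes came from many tissues, and no tissue of origin covered most of them. Grouped after their values were seen, 18 act in the cytoskeleton, in adhesion or in the matrix, 13 are best known from neurons or glia, 13 act in metabolism or transport, 12 are hormones, receptors or their signalling proteins, 6 act in chromatin or transcription, 5 are known from germ cells, 5 from ubiquitin-like pathways, and 8 are other or little-studied genes. The values that follow are given in the order of replicates 1, 2 and 3 of each genotype.

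Among the signalling genes, Gcg, which encodes preproglucagon, the precursor of glucagon in pancreatic alpha cells and of glucagon-like peptide 1 (GLP-1) in intestinal L cells, had the highest HDAC1-cKO mean. It stood at 3.73, 11.2 and 7.77 CPM in HDAC1-cKO and at 0.0384, 0.0894 and 0.179 CPM in WT. The lowest HDAC1-cKO library was thus far above the highest WT library, on 121, 407 and 155 reads against 2, 5 and 7. The ratio of the means was 73.9. Per length of transcript, on the deposited FPKM scale, the Gcg level was 6.7 ± 3.24 (SD, n = 3) in HDAC1-cKO and 0.0954 ± 0.0674 (SD, n = 3) in WT.

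The receptor for GLP-1, Glp1r, known from pancreatic beta cells and the brain, was also in the set, but on weaker data. It stood at 1.54, 0.0826 and 1.55 CPM in HDAC1-cKO and at 0.0768, 0 and 0 CPM in WT. HDAC1-cKO replicate 2, with 3 reads, was practically level with WT replicate 1, with 4 reads, and only the other two HDAC1-cKO libraries stood apart. The hormone and receptor genes closest to this pair by family, Gip, Gcgr, Glp2r and Gipr, had 0 reads in all 6 libraries.

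Lrp1, a large endocytic receptor of liver, neurons and macrophages, stood at 1.39, 0.881 and 1.25 CPM in HDAC1-cKO and at 0.0192, 0.0179 and 0 CPM in WT. Mcam (CD146), an adhesion receptor of endothelium and pericytes, stood at 2.49, 0.854 and 0.902 CPM against 0.0192, 0 and 0 CPM. Eng, a co-receptor for TGF-beta family ligands on endothelium, stood at 0.216, 1.68 and 1.55 CPM against 0, 0.0179 and 0 CPM. The WT libraries held at most 2 reads of any of these in all, and the HDAC1-cKO libraries were separate from them in each. With so few WT reads the ratio of pooled CPM is loose: it was 84.5 for Lrp1 (exact 95% interval 22.8 to 707), 215 for Mcam (38 to 8571) and 164 for Eng (28.8 to 6542). The same counts chose these genes, so the intervals describe counting error and test nothing. Spread between libraries is not in them.

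Pdgfrb, the platelet-derived growth factor receptor of pericytes and fibroblasts, stood at 1.2, 0.413 and 2.15 CPM in HDAC1-cKO and at 0.115, 0 and 0 CPM in WT. Because Pdgfrb, Mcam and Eng are known from lymph node stroma and vessels, the markers of those cells were set beside them. Of 11 stromal marker genes, Pdgfra, Pdpn, Col1a2, Lum and Ccl21a were at 0 in all 6 libraries. Ccl19 was low but apart, at 0.154, 0.413 and 0.15 CPM in HDAC1-cKO and 0.115, 0.0358 and 0 CPM in WT. A further entry of Ccl19 was at 0 throughout. The groups were not apart in Cxcl13, Col1a1, Col3a1 and Dcn. Without Pdgfrb itself, the summed stromal level was 1.42, 1.71 and 0.351 CPM in HDAC1-cKO and 1.61, 0.304 and 0.743 CPM in WT, which overlapped. Of 9 endothelial markers, Tek, Lyve1, Prox1, Emcn and Cldn5 were at 0 in all 6 libraries, and the sum of 60.4 to 83.7 CPM in HDAC1-cKO and 62.4 to 95.9 CPM in WT was nearly all Pecam1, which T cells also express. Cdh5 was at 0, 0 and 0.2 CPM in HDAC1-cKO and at 0.115, 0.537 and 0.205 CPM in WT, and Kdr was at 0 except for 0.677 CPM in HDAC1-cKO replicate 1. Madcam1 was at 0, 0.992 and 1.15 CPM in HDAC1-cKO and at 0 in WT.

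Plxnb2, a semaphorin receptor, was among the best expressed of this group, at 5.67, 4.93 and 6.41 CPM in HDAC1-cKO and 0.653, 1.5 and 0.359 CPM in WT. Rgs12, which speeds the shut-off of G proteins, was as even, at 3.36, 3.77 and 2.61 CPM against 0.538, 0.841 and 0.922 CPM. In both genes the 3 HDAC1-cKO libraries lay close together and well above WT. Tyro3, a receptor kinase that binds Gas6 and protein S, had means of 3.65 ± 1.53 and 0.86 ± 0.801 CPM (SD, n = 3). Its family member Axl had means of 7.75 ± 1.43 and 8.48 ± 2.6 CPM (SD, n = 3) and was not called by edgeR (adjusted p = 0.812), and Mertk was at 0 throughout. The others were Bmp7, a bone morphogenetic protein of kidney and skeleton (2.12 against 0.147 CPM), the scaffold Card10 of NF-kappaB signalling outside blood cells (2.37 against 0.429 CPM), and the membrane protein Plxdc2 (1.79 against 0.253 CPM).

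Several of the neural genes act at synapses. Syngr1, a membrane protein of synaptic vesicles, stood at 5.7, 6.91 and 6.46 CPM in HDAC1-cKO and at 1.19, 0.733 and 0.487 CPM in WT. Ncs1, a neuronal calcium sensor, stood at 5.94, 5.78 and 4.66 CPM against 0.768, 0.197 and 0.435 CPM. In both genes the HDAC1-cKO libraries lay close together, each several times the highest WT library.

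Nptxr, a receptor for pentraxins that gather glutamate receptors, stood at 1.72, 1.74 and 1.05 CPM in HDAC1-cKO and at 0.0768, 0.107 and 0.102 CPM in WT. Homer3, a postsynaptic scaffold of cerebellar neurons, stood at 2.96, 3.58 and 3.11 CPM against 0.864, 0.447 and 0.538 CPM. Homer3 shares 25.4% of its exon bases with the opposite-strand gene Ddx49, which stood at 35.3 and 33.6 CPM, and the library kit did not mark strand, so reads of the 2 genes cannot be told apart there. Amigo2, a leucine-rich adhesion protein of neurons, stood at 0.985, 2.53 and 0.702 CPM against 0, 0 and 0.0769 CPM, or 76.2 times the pooled WT level (exact 95% interval 25.5 to 374).

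Gabrr2, a subunit of retinal GABA receptors, shows how 1 library can carry a mean: it stood at 1.51, 9.64 and 1.6 CPM in HDAC1-cKO and at 0.73, 1.14 and 0.128 CPM in WT. Replicates 1 and 3 of HDAC1-cKO were near the highest WT library, and replicate 2, the library with the GC trend, was far above. The other neural genes had HDAC1-cKO means between 1.12 and 2.08 CPM. They included the vesicular zinc transporter Slc30a3, the catenin Ctnnd2 of dendrites, the amyloid precursor adaptor Apbb2, the brain F-box protein Fbxo2, the Schwann cell myelin protein Ncmap, and agrin (Agrn), which gathers acetylcholine receptors at the neuromuscular junction. Apbb2 reached 2.71 CPM in replicate 3 and only 0.493 and 0.165 CPM in the other two.

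The germ cell genes included 2 of meiosis. Dmc1, the recombinase that pairs homologous chromosomes, stood at 6.16, 2.53 and 4.21 CPM in HDAC1-cKO and at 1.23, 0.68 and 0.384 CPM in WT. Stag3, the cohesin subunit of meiotic chromosomes, stood at 2.06, 4.35 and 2.15 CPM against 0.615, 0.0179 and 0.589 CPM. In both genes each HDAC1-cKO library was at least 2 CPM and above the WT libraries, of which Dmc1 had 1 above 1 CPM.

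The relatives of Stag3 that dividing somatic cells use, Stag1 and Stag2, were more abundant. They had means of 50.3 and 68 CPM in HDAC1-cKO and 62.8 and 71.1 CPM in WT, and neither was called by edgeR (adjusted p = 0.418 and 0.789).

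Gpat2, a mitochondrial glycerol-3-phosphate acyltransferase of male germ cells, stood at 2, 0.523 and 1.1 CPM in HDAC1-cKO, on 65, 19 and 22 reads, and had 0 reads in each WT library. Against a floor of 3 reads over the WT group it was at least 58.5-fold higher. The somatic isoenzymes Gpam and Gpat4 had means of 4.25 and 59.9 CPM in HDAC1-cKO and 4.01 and 50.7 CPM in WT. Ly6k, a surface protein needed for sperm migration, had means of 3.31 ± 1.05 and 0.356 ± 0.311 CPM (SD, n = 3), and Gkap1, a kinase anchor of testis, of 1.27 ± 0.849 and 0.13 ± 0.114 CPM.

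Lists of genes typical of these tissues were set beside the 80 genes, of which they held few. Of 74 germline genes (meiotic, piRNA and pluripotency genes), 12 had enough reads to be tested, and edgeR called 0 higher and 1, Syce2, lower, at a median log2 fold change of -0.31. At an unadjusted p under 0.05 edgeR had 1 of the 12 higher and 2 lower, and DESeq2 and limma-voom each called Dmc1 higher and Syce2 lower. Of 70 neuronal genes, 13 were tested and edgeR called 0, at a median of 0.38, with 4 higher at an unadjusted p under 0.05; DESeq2 and limma-voom each called 1, Rab3a, higher. None of the 13 neural genes of the set was in that list. The share of all genes tested with an unadjusted p under 0.05 is not given here, so nothing is read from these unadjusted counts.

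Of 57 peptide hormone genes, 5 were tested and edgeR called Gcg higher, and of 52 muscle and heart genes, 13 were tested, at a median log2 fold change of -0.33, and it called Cryab higher; both called genes were chosen by this contrast. At an unadjusted p under 0.05 edgeR had 2 of the 13 muscle and heart genes higher and 2 lower, DESeq2 called 2 higher and 1 lower, and limma-voom called 1 higher and 2 lower. Of 49 liver, gut and kidney genes 3 could be tested, and of 81 developmental transcription factors 1 could, and edgeR called 0 in both lists. At an unadjusted p under 0.05 it had 1 of the 3 higher and 0 of the 1, and DESeq2 called Apoa2 in the former. Over all 15519 genes tested the median log2 fold change was 0. Nothing is read from the unadjusted counts of these lists either, for want of the share over all genes.

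The cytoskeleton, adhesion and matrix genes were the most numerous. Sept4, a septin of the sperm tail ring and of brain, stood at 8.19, 8.76 and 6.41 CPM in HDAC1-cKO and at 0.422, 1.61 and 0.615 CPM in WT. Itgb5, the integrin beta 5 chain that pairs with the alpha V chain to bind vitronectin, stood at 7.85, 6.28 and 5.41 CPM against 0.365, 0.751 and 1.18 CPM. All 3 HDAC1-cKO libraries exceeded 5 CPM in both genes. The partner chain Itgav had means of 10.3 ± 4.34 and 17.1 ± 5.86 CPM (SD, n = 3; edgeR adjusted p = 0.311), and the beta 1 and beta 3 chains Itgb1 and Itgb3 had means of 419 and 11.9 CPM in HDAC1-cKO and 459 and 14.7 CPM in WT.

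Pard6g, an isoform of the Par6 polarity scaffold, stood at 3.79, 9.69 and 3.76 CPM in HDAC1-cKO and at 0.768, 0.984 and 1.05 CPM in WT. Its relative Pard6a had means of 14.7 and 9.09 CPM and was not called by edgeR (adjusted p = 0.244). The groups were apart in Pard6a too, at 14.1, 18.3 and 11.8 CPM in HDAC1-cKO and 9.14, 11.4 and 6.74 CPM in WT. Sorbs3 (vinexin), an adaptor of focal adhesions, stood at 3.51, 6.83 and 4.81 CPM against 1.17, 0.0716 and 0.64 CPM. Spon2, a secreted matrix protein that binds integrins, stood at 6.74, 1.51 and 3.71 CPM against 0.115, 1 and 0.0512 CPM, with HDAC1-cKO replicate 2 close to WT replicate 2.

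The other genes of the group had HDAC1-cKO means of 1.03 to 2.36 CPM. Arhgef4, Arhgef25 and Arhgef40 are guanine nucleotide exchange factors that act on the cytoskeleton, and Syde2 is related to GTPase-activating proteins. Arhgef40 had 1.63 and 2.15 CPM in replicates 1 and 3 but 0.0826 CPM in replicate 2, close to the 0.0576 CPM of WT replicate 1. Plekha7, Cldn10 and Epb41l5 act at epithelial junctions, Sh3pxd2a in podosomes, and Aif1l and Spire2 on actin, and Mxra8, Adamtsl5 and Spock2 are surface or matrix proteins. Epb41l5 was even in HDAC1-cKO, at 1.02, 0.964 and 1.1 CPM against 0.0768, 0.268 and 0.0256 CPM, with each HDAC1-cKO library above 3 times the highest WT library.

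Among the metabolic and transport genes, Urah had the highest level of the 80 genes. It encodes an enzyme of the urate pathway in liver. Its level was 11.3, 25.7 and 12.2 CPM in HDAC1-cKO and at 0.422, 0.877 and 0.0769 CPM in WT. The HDAC1-cKO libraries were all above 10 CPM and the WT libraries all below 1 CPM. Per length of transcript, the Urah level was 13.9 ± 6.64 FPKM in HDAC1-cKO and 0.405 ± 0.354 FPKM in WT (SD, n = 3).

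G0s2, which inhibits the fat lipase ATGL in adipose tissue and liver, was even in both genotypes. It stood at 2.65, 3.31 and 2.96 CPM in HDAC1-cKO and at 0.192, 0.179 and 0.231 CPM in WT. Pnpla2, which encodes the lipase that G0s2 inhibits, had means of 106 ± 8.34 and 81 ± 14.1 CPM (SD, n = 3). Its groups were apart too, at 103, 115 and 99.7 CPM in HDAC1-cKO and 64.9, 86.5 and 91.5 CPM in WT. EdgeR did not call Pnpla2 (adjusted p = 0.322).

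Gpx3, the glutathione peroxidase that kidney secretes into plasma, stood at 3.63, 14 and 5.16 CPM in HDAC1-cKO and at 0.787, 1.59 and 0.102 CPM in WT. The cellular enzymes Gpx1 and Gpx4 had means of 703 and 291 CPM in HDAC1-cKO and 533 and 201 CPM in WT. In both, every HDAC1-cKO library was above every WT library, as in 15.4% of all genes tested. Neither was called by edgeR (adjusted p = 0.177 and 0.0699), and Gpx3 was not called either. Cryab, a small heat shock protein of lens and muscle, stood at 5.51, 2.4 and 5.36 CPM against 0.672, 0.966 and 0.487 CPM. It shares 17.0% of its exon bases with Hspb2 on the other strand, which had a mean of 0.237 CPM in HDAC1-cKO.

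Other genes of this group are known from striated muscle. Tmem38a, a potassium channel of the sarcoplasmic reticulum, had means of 3.66 ± 0.191 and 0.867 ± 0.701 CPM (SD, n = 3). Adssl1, the muscle form of adenylosuccinate synthase, stood at 1.42, 2.48 and 2.15 CPM against 0.307, 0.34 and 0.512 CPM, and its general form Adss had means of 135 and 139 CPM. Selenon, a selenoprotein that muscle needs, had means of 1.09 and 0.128 CPM. Ppargc1b, a coactivator of mitochondrial genes, had means of 2.27 and 0.399 CPM, while Ppargc1a was at 0 in all 6 libraries.

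Slc25a23, a mitochondrial carrier of ATP-Mg and phosphate, stood at 2.56, 2.15 and 2.2 CPM in HDAC1-cKO and at 0.538, 0.286 and 0.333 CPM in WT. The HDAC1-cKO libraries differed little among themselves and lay at about 4 times the highest WT library or more. The rest were Castor2, related to an arginine sensor of mTORC1, the threonine synthase-like Thnsl2, the hydroxylysine kinase Hykk, and the water channel Aqp11 of kidney, with HDAC1-cKO means of 2.27, 2.7, 1.01 and 1 CPM.

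Among the chromatin and transcription genes, Rcor2 encodes CoREST2, a scaffold of the complex in which HDAC1 itself works, and is known from embryonic stem cells and neural progenitors. It stood at 1.26, 1.57 and 1.45 CPM in HDAC1-cKO and at 0, 0.143 and 0.0256 CPM in WT. The HDAC1-cKO values lay close together, and edgeR did not call the gene. Its relative Rcor3 had means of 11.5 ± 2.73 and 8.39 ± 0.504 CPM (SD, n = 3) and was not called by edgeR (adjusted p = 0.422). Rcor1 stood at 17.9, 14.4 and 25.7 CPM and at 16.7, 25 and 15.5 CPM, which overlapped (edgeR adjusted p = 0.965).

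Zfp358, a zinc finger protein, stood at 3.57, 5.76 and 3.41 CPM in HDAC1-cKO and at 1.09, 0.859 and 0.717 CPM in WT. Padi4, which converts histone arginines to citrulline in neutrophils, had means of 1.6 ± 0.873 and 0.297 ± 0.36 CPM (SD, n = 3). Neutrophil markers were near 0 in the same libraries: 9 marker genes summed to between 0 and 0.193 CPM in HDAC1-cKO and between 0.23 and 1.41 CPM in WT. Qser1, which guards promoters from DNA methylation, stood at 2.19, 1.4 and 2.81 CPM against 1.38, 0.0716 and 0.0256 CPM, with HDAC1-cKO replicate 2 level with WT replicate 1. The epithelial repressor Ovol2 and the zinc finger protein Zfp575 had HDAC1-cKO means of 1.38 and 2.18 CPM. Zfp575 shares 3.6% of its exon bases with Ethe1 on the opposite strand, which had means of 69.5 and 35.7 CPM.

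In the ubiquitin-like group, Klhl23, a substrate adaptor of cullin 3 ligases, had 1 read in the whole WT group. It stood at 3.29, 0.441 and 2.05 CPM in HDAC1-cKO and at 0.0192, 0 and 0 CPM in WT, a pooled ratio of 272 (exact 95% interval 48.1 to 10795). The related cullins Cul7 and Cul9, which bind p53, had means of 1.46 and 1.09 CPM in HDAC1-cKO and 0.293 and 0.0807 CPM in WT. They lie 104 kb apart on chromosome 17. March9, a membrane ubiquitin ligase, and Ufsp1, a protease of the UFM1 pathway, had means of 1.74 and 2.25 CPM in HDAC1-cKO.

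The remaining genes were Clba1, with clathrin-binding motifs, Ckap4, a membrane protein that shapes the endoplasmic reticulum, Bbs5, a subunit of the cilium's BBSome, the Rab regulator Sgsm2, and Ankrd29, Tmem40, Fam161b and 1110032F04Rik, whose roles are little known. Clba1 stood at 1.57, 1.02 and 1 CPM in HDAC1-cKO and at 0, 0.0179 and 0.0256 CPM in WT, a pooled ratio of 89.5 (exact 95% interval 24.2 to 748). Ckap4 stood at 1.08, 3.19 and 2.81 CPM against 0.211, 0.376 and 0.231 CPM. Bbs5 stood at 1.76, 0.716 and 1.05 CPM against 0.25, 0.358 and 0.256 CPM, so that its lowest HDAC1-cKO library was 2 times its highest WT library.

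**Figure D2:**
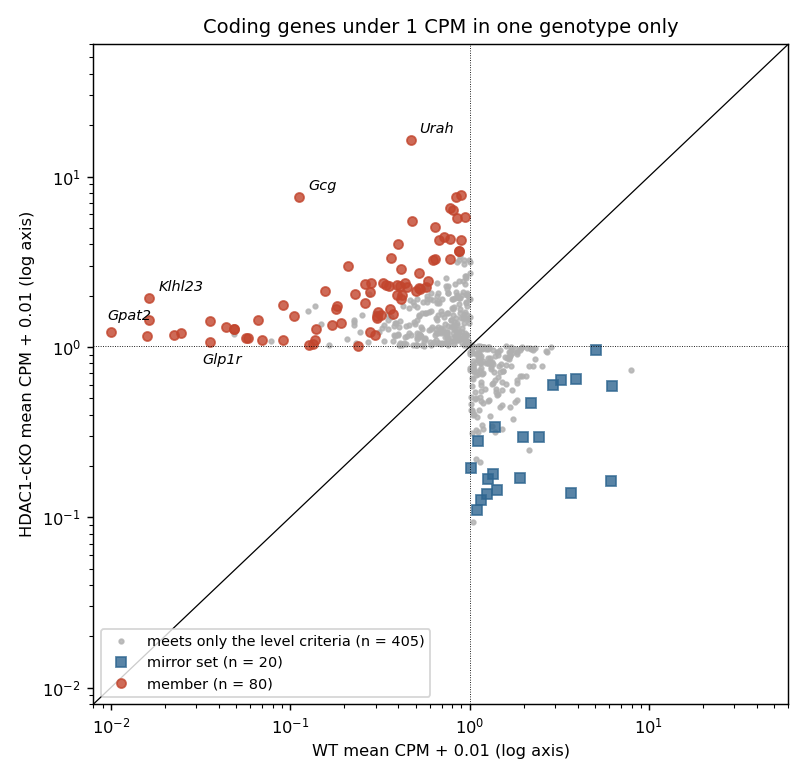
Mean CPM + 0.01 in WT (x axis) and HDAC1-cKO (y axis), both log axes, for protein-coding genes with a mean below 1 CPM in only 1 genotype. Circles are the 80 genes and squares the 20 genes of the mirror set. Grey points are the 405 genes that met the level criteria but not the whole rule, some of which met 1 further criterion. Dotted lines mark 1 CPM and the diagonal marks equal means. Urah is the highest circle, and no circle exceeds 16.4 CPM on the y axis.

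The same rule was run with the genotypes exchanged. It gave 20 genes, down from 11749 with an HDAC1-cKO mean below 1 CPM, 186 with a WT mean of at least 1 CPM, and 28 at a ratio of 4. These were Mmp25, Neto2, Ifitm6, Mgarp, Slpi, Snx9, Atp6v0a1, Trove2, Vcam1, Fbxo47, Krt6b, Psd3, Tmprss13, Mmp9, Csf2, Gcnt2, Ccl1, Muc13, Ccl8 and Lilrb4a. Groups were apart in that direction in 9.52% of all genes tested and in 25.8% of the 186. The difference between 80 and 20 has no test here, and both numbers were larger when 1 library was left out. Without HDAC1-cKO replicate 2 the numbers were 84 and 40, and without HDAC1-cKO replicate 1 they were 97 and 38. Over all such settings they ran from 84 to 109 and from 22 to 40. Fewer libraries are apart more easily, so these numbers are not directly comparable with 80 and 20. On the deposited FPKM with the same thresholds the set and the mirror set held 31 and 14 genes, and 22 of the 80 genes were still included.

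**Figure D3:**
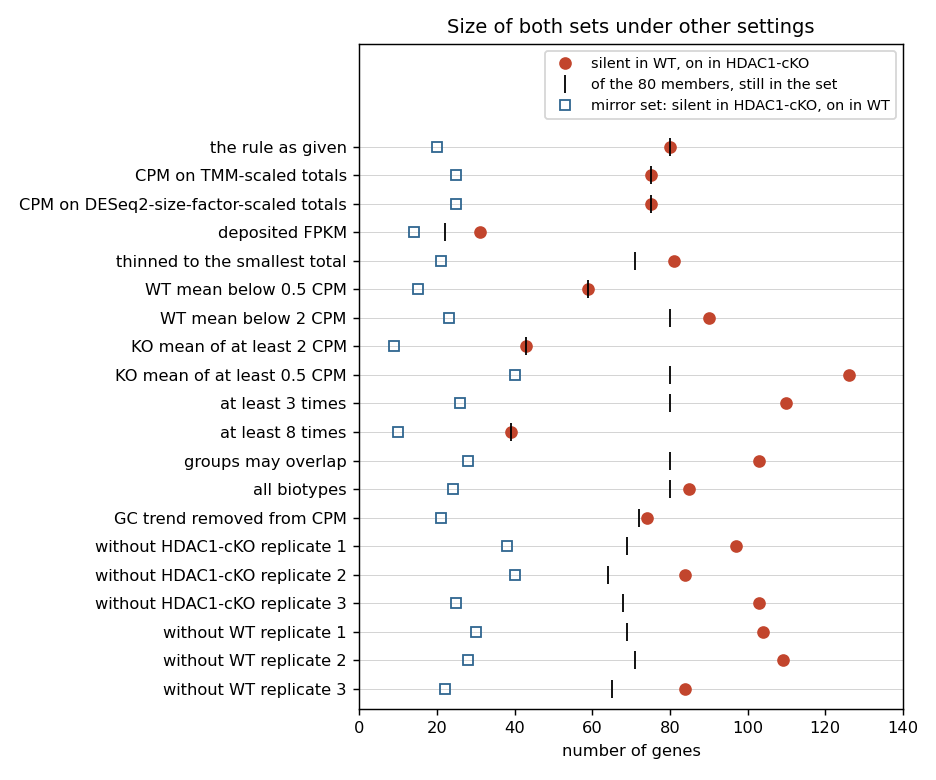
Number of genes (x axis) that met the rule under each setting (y axis). Circles are genes silent in WT and on in HDAC1-cKO, squares the mirror set, and black bars how many of the 80 genes remained; on FPKM the circle falls to 31, and it stays above the square in every setting shown.

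The 80 genes were rich in G and C. The median GC content of their longest transcript was 55.5%, and 63 of the 80 were above 50%, which is 78.8%. Of 11295 tested protein-coding genes 47.1% were above 50%, with a median of 49.5%, and of 3789 coding genes that were detected but stayed under 1 CPM in both genotypes 53.7% were, with a median of 50.8%. The mirror set had a median of 47.3%. HDAC1-cKO replicate 2, the library with a GC trend, was the highest HDAC1-cKO library in 34 of the 80 genes and the lowest in 28. After each library's GC trend had been removed from CPM, the rule gave 74 genes, 72 of them among the 80, against 21 in the mirror set. Transcript length was 3214 bases at the median, against 3301 in the tested coding genes.

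RefSeq held a promoter window, from 250 bases before to 50 bases after the start, for 59 of the 80 genes. CpG dinucleotides are underrepresented in most mouse DNA but not in CpG islands, and the ratio of observed to expected CpG measures this. In 39 of the 59 windows (66.1%) the ratio was above 0.6, and the median was 0.72. The share was 74.0% in 8939 tested coding genes, 37.4% in 2699 coding genes detected under 1 CPM in both genotypes, and 50.1% in all 16538 coding promoters. The median GC content of the windows was 66.7%, against 60.7%, 56.3% and 57.0% in those 3 sets. The 80 genes were chosen by their level in HDAC1-cKO, and the part of that choice in these shares was not tested.

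**Figure D4:**
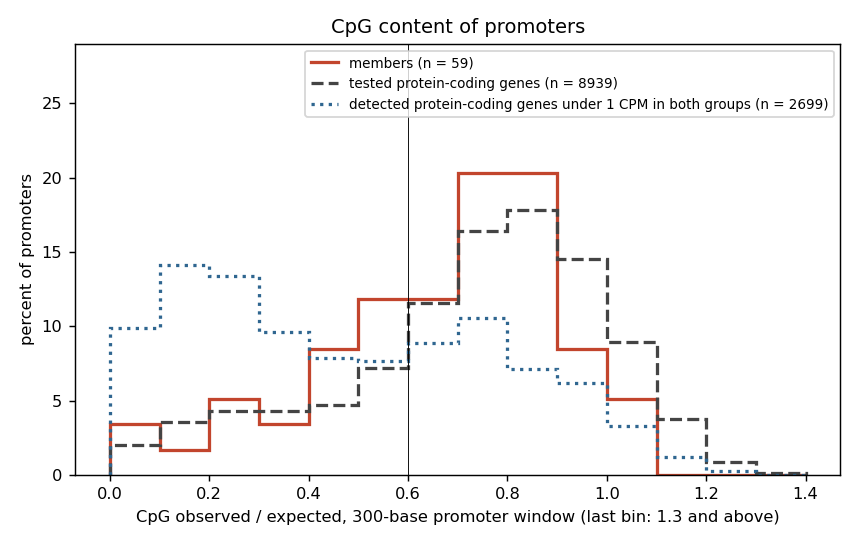
Observed over expected CpG in the 300-base promoter window (x axis) against percent of promoters in each bin (y axis). The solid line is the 59 genes with a window, the dashed line 8939 tested protein-coding genes and the dotted line 2699 coding genes under 1 CPM in both genotypes; the thin vertical line marks 0.6, above which 66.1%, 74.0% and 37.4% of the windows lie.

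Shares of windows with short motifs, searched on both strands, are given beside 3 sets in this order: tested coding genes, coding genes detected under 1 CPM in both genotypes, and all coding promoters. The GC box letters GGGCGG were found in 43 of the 59 windows (72.9%), against 65.3%, 43.3% and 48.2%. TATAAA was found in 6.8%, against 6.9%, 11.7% and 12.9%. CCAAT was found in 27.1%, against 39.7%, 35.7% and 38.8%, and TGTGGT, a RUNX site, in 5.1%, against 12.7%, 15.2% and 14.8%. The left part of an RE1 element, CAGCACC, was found in 8 windows (13.6%), against 7.4%, 7.4% and 7.1%, and the right part, GGACAGC, in 4 (6.8%), against 7.3%, 7.1% and 7.0%. The E-box letters CACGTG were found in 6.8%, against 10.4%, 7.7% and 8.1%. TGACGT, the core of a cAMP response element, was found in 5.1%, against 12.5%, 6.1% and 9.0%, and the GATA site letters AGATAA in 3.4%, against 6.4%, 9.7% and 9.7%. Apart from the GC box and CCAAT, these shares rest on 2 to 8 windows of the set, and none was tested.

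The genes lay on 19 chromosomes, with 12 on chromosome 2 and 8 on chromosome 15. None of the 80 started within 100 kb of another, whereas 2.3% of 11219 other tested coding genes started that close to one of the 80. Within 1 Mb there were 24 of the 80 (30.0%), against 12.9% of the other genes. These were March9, Arhgef25 and Lrp1 on chromosome 10, Adssl1 and Clba1 on 12, Card10, Dmc1, Nptxr and Syngr1 on 15, Cul7 and Cul9 on 17, Pdgfrb and Ppargc1b on 18, Bbs5 and Klhl23 as well as Ncs1, Aif1l and Eng on 2, Mxra8 and Agrn as well as Selenon and Ncmap on 4, and Ufsp1 and Stag3 on 5. Dmc1, Nptxr and Syngr1 spanned 486 kb, with 13 coding starts between Dmc1 and Syngr1, that of Nptxr included.

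The nearest tested coding genes, with the 80 themselves left out, showed no such difference. Neighbours with too few reads to be tested were not compared. The nearest tested coding neighbour of each of the 80 genes had a median log2 fold change of 0.04, and it was positive for 43 of them (53.8%), against 49.9% of the neighbours of other tested genes. Of the neighbours 1 (1.25%) was called higher by edgeR, against 1.13%. The median neighbour stood at 24.4 CPM in WT. In the annotation 21 of the 80 genes shared exon bases with another gene, 19 of them with one on the opposite strand, and 59 shared none.

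Markers of other cells that a lymph node sort could carry were compared between the genotypes. A list of 13 T cell genes summed to 26583 to 37148 CPM in HDAC1-cKO and 30839 to 36241 CPM in WT, most of it Trbc2. Without Trbc2 the sums were 8946 to 11579 and 10504 to 12148 CPM, and edgeR called 2 of the 13 genes lower, Cd3e (log2 fold change -1.42, adjusted p = 0.0102) and Cd2 (-0.65, adjusted p = 0.031). Cd3g was not called (edgeR adjusted p = 0.0605) but was lower without overlap, at 324, 441 and 326 CPM in HDAC1-cKO and 504, 578 and 557 CPM in WT. B cell markers summed to 43.6 to 86.6 and 23.1 to 56.5 CPM, and MHC class II genes to 141 to 407 and 59.6 to 293 CPM. Macrophage markers summed to 6.99 to 12.4 and 6.86 to 31.6 CPM, and plasma cell markers to 3.56 to 7.38 and 2.8 to 3.83 CPM. All of these sums overlapped, but single genes in them did not. Cd79b (B cell) stood at 18.9, 26.6 and 19 CPM in HDAC1-cKO and at 10.3, 12.2 and 8.45 CPM in WT. Cd68 (macrophage) stood at 2.49, 6.39 and 5.36 CPM against 1.98, 2.16 and 2.05 CPM. Sdc1 (plasma cell) stood at 0.801, 0.881 and 0.651 CPM against 0, 0 and 0.538 CPM. None of these was called by edgeR (adjusted p = 0.0592, 0.153 and 0.514). Dendritic cell markers were lower in HDAC1-cKO, at 3.72 to 8.77 CPM, than in WT, at 11.5 to 15 CPM, without overlap, but this rested on 1 gene, Xcr1, at 4.8, 1.6 and 4.56 CPM against 11.1, 10.7 and 9.38 CPM. Without Xcr1 the sums were 2.12 to 4.21 and 2.15 to 3.88 CPM and overlapped, and Clec9a, Flt3 and Cd209a were at 0 in every library. Epithelial markers summed to 11.8 to 14.6 and 7.59 to 17.2 CPM, and natural killer and CD8 cell markers to 250 to 576 and 189 to 1007 CPM. Mast cell and basophil markers summed to 2 to 8.32 and 2.23 to 7.95 CPM. Erythroid markers summed to 0.831 to 1.68 and 0.807 to 2.43 CPM, and platelet markers to 0 to 0.351 and 0.154 to 0.282 CPM. The CD8 marker Cd8b1 was apart, at 67.1, 73.5 and 66.1 CPM against 44.3, 44.7 and 55.4 CPM (edgeR adjusted p = 0.127). So was the erythroid marker Alas2, at 0.339, 0.22 and 0.2 CPM against 0.096, 0 and 0 CPM. The mast cell marker Cpa3 was lower in HDAC1-cKO, at 0.0616, 0 and 0 CPM against 0.307, 0.0716 and 0.0769 CPM. The part of other cells in the values of the 80 genes was not tested.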

How the data were processed

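RNA of 500 sorted cells per library was measured in 6 libraries, 3 per genotype. Per the labels' protocols, cDNA was made by Smart-seq2, tagged with a Nextera XT kit that leaves strand unmarked, and read on a HiSeq in single reads of 50 bases. The authors deposited raw counts of reads for 55536 genes, and FPKM for the same genes. Per the submitters' processing notes, R 3.6.1 and DESeq2 1.24.0 were used, besides STAR 2.5.2b and Picard 2.19.2. For the read counter and how it handled strand and multiply mapped reads, the settings were not given in any source used here. Of the genes in the table, 55450 had the identifier and coordinates of GENCODE M21 on GRCm38, which gave exons, transcripts and GC content. Each column name matched 1 sample, and 0 columns were left unmapped.

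CPM was computed on the plain total count of each library, which is the denominator of the rule. Genes were kept by edgeR's filterByExpr, scaled by TMM and tested with its robust quasi-likelihood F test (edgeR 4.0.16, R 4.3.3; two-sided, genotype as the term, 3 libraries per group), with Benjamini-Hochberg adjustment over all 15519 genes and a threshold of 0.05. Each SE of a log2 fold change comes from that fold change and its F statistic. Where WT held 1 to 3 counts over the group, the ratio of pooled CPM has an exact 95% interval from the 2 counts, and where it held 0 a floor of 3 counts was used. These counts also chose the genes, so no such interval is a test of the difference. The test was also run on counts simulated from the mean levels and fitted dispersions of these genes, and the outcome is not given here. FPKM were tested with limma 3.58.1 on log2(FPKM + 1) as an alternative, which understates the change of low genes. The other alternatives were other scalings, DESeq2 1.42.0, limma-voom, other filters, thinned counts, other thresholds of the rule, leaving out each library and a replicate block. A correction of the GC trend within libraries was added after seeing the data. No library was a repeat deposit, since every pair had a chi-square per degree of freedom between 12.0 and 150.5; that the libraries are biological replicates rests on the series text.

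The genes, their function groups, the relatives and the lists of germline, neuronal, hormone, muscle, liver and transcription factor genes and of cell markers were chosen with earlier results of these data known. Named with values in every library were Hdac1, the 15 genes with the highest HDAC1-cKO mean, the 10 with the highest ratio, those past the edgeR threshold up to 20 by lowest p, those in a list, and those nearest a threshold. This gave 36 genes; others shown with single-library values were chosen after these were seen. Promoters were RefSeq windows on GRCm38.p6, found for 59 of the 80 genes; the rest were not used there. Plots were made in Python 3.11.15 with matplotlib 3.10.9. A few genes, 1 of them among the 80, are not reported here by name.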

Additional observations from a re-analysis of the deposited data

How the results depend on the processing

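The set's size followed its thresholds and its unit. It was 31 genes on deposited FPKM, 43 and 126 with an HDAC1-cKO floor of 2 and of 0.5 CPM, and 39 at a ratio of 8; the mirror set was 9 and 40 with those floors and 10 at the ratio of 8. Leaving out 1 library gave 84 to 109 genes, and 22 to 40 in the mirror set, but fewer libraries are also apart more easily. Scaling, thinning, a WT ceiling of 0.5 or 2 CPM, a ratio of 3, overlapping groups, all biotypes and GC correction moved either number by less than 1.5 times. Calls depended on tool and replicates. Among the 80 genes, edgeR called 22, DESeq2's Wald test 57 (4.88% of all genes it tested were called higher), limma-voom 55 (4.81%), and edgeR after a filter of 10 CPM in 3 libraries 1, since only Urah passed that filter (2.46%). Over all genes, 152 were called higher and 154 lower, against 698 and 665 with DESeq2, 747 and 802 with limma-voom, 63 and 40 with limma on log2(FPKM + 0.1), 243 lower without a filter and 319 lower with GC offsets. Leaving out 1 library gave 2 to 22 calls among the 80, and 15 to 258 higher and 10 to 368 lower over all genes. The 560 alternative values of the 33 named genes that could be fitted kept their direction, which the choice of the genes fixes; 121 lost the call and 25 gained it.

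With the replicate number as a block, edgeR called 8 of the 80 genes (0.219% of all), 34 genes higher and 31 lower over all. Deviations of same-numbered libraries correlated at 0.024, -0.002 and -0.042, and those of other pairs at -0.048 to 0.05. By this measure same-numbered libraries were no more alike than others. With 3 libraries per group it cannot exclude a pairing, and the labels do not state one. At 100 kb, 0 of the 80 genes lay near another, and at 1 Mb 24 did. Promoters with CpG above the cut were 61.0% over the 250 bases before the start alone, against 66.1%. Depth limits all of this: the median gene of the set had 43.0 to 76.5 reads per HDAC1-cKO library and 9.0 to 12.5 per WT library.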

Other observations

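Genes that missed the set by a single criterion are given as values, since the same contrast chose them. With a WT ceiling of 2 CPM the rule took in 10 more coding genes. Renbp, a renin-binding epimerase of sialic acid metabolism, stood at 17, 20.1 and 14.5 CPM in HDAC1-cKO and at 1.56, 1.32 and 1.38 CPM in WT, higher and more even than most of the 80 genes. Dapl1 stood at 7.97, 14 and 6.56 CPM against 1.15, 1.84 and 1.41 CPM, and Vdr, the vitamin D receptor, at 4.5, 6.67 and 4.01 CPM against 1.54, 0.948 and 1.2 CPM. Itga5, the fibronectin receptor chain, stood at 6.19, 4.08 and 10.2 CPM against 1.09, 2 and 0.666 CPM. Colq, the collagen tail of acetylcholinesterase, had 15.5 CPM in HDAC1-cKO replicate 2 and 4.19 and 4.31 CPM in the other two, against 1.24 CPM in WT at the mean. The others were Ankrd13d, Steap3, Mpzl1, Fam81a and Zfp667.

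Without the criterion on biotype, 5 noncoding genes joined. Gm38326, a long intergenic noncoding RNA, stood at 1.69, 0.661 and 1.4 CPM in HDAC1-cKO and had 0 reads in every WT library. The lincRNA D5Ertd605e had means of 1.95 ± 0.683 and 0.313 ± 0.262 CPM (SD, n = 3), and the antisense gene 4930513N10Rik of 1.11 ± 0.221 and 0.187 ± 0.271 CPM.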
